A study of Homo sapiens with 3 samples.

Results

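The peaks described here flank a stretch of 9p21 in which no HMGA1 peak was called in DAMI cells, a human leukaemic cell line with the disease label MPN/AML. The stretch holds MTAP, CDKN2A and CDKN2B. Members were chosen by position, as peaks on chromosome 9 (hg19) with a summit from 17000000 to 32000000, around a stretch and a raised level that were found in these same lists. Peak positions and levels are therefore given as a description, with no test. The input list, HMGA1 ChIP with input DNA as control, held 2794 members of 385953 peaks (0.724%). The H3 list, the same HMGA1 ChIP with histone H3 ChIP as control, held 2200 of 263033 (0.836%). There were 3 libraries from this line: HMGA1 ChIP, H3 ChIP, and input DNA without antibody, each with 1 sample and no replicate. All groups share the cell line and its culture in RPMI medium with serum, and the labels name no treatment or genotype. Both lists rest on the same HMGA1 reads, so a peak seen in both is not replicated.

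HMGA1 is a small architectural protein whose AT-hooks bind short A and T runs in the minor groove of DNA. Histone H3 is part of every nucleosome, so its ChIP follows nucleosomal DNA, while input DNA follows how much of a region enters the libraries. CDKN2A encodes p16INK4a, which inhibits the cyclin D kinases, and p14ARF, which stabilises p53. CDKN2B encodes the related inhibitor p15INK4b, and MTAP is the enzyme that salvages methionine from methylthioadenosine. This cluster is known as one of the segments most often lost in leukaemias and in cultured leukaemic lines.

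The sequences before the starts of these genes are shown because the 3 genes lie inside the stretch, and because short A and T runs are what AT-hooks contact. Whether promoters of other genes also lie inside it was not analysed. They are the 180 bases before each start (RefSeq, GRCh38.p14, chromosome 9; plus strand for MTAP, minus strand for the others), 5′ to 3′, and 4 starts of the 3 genes matched. Capitals mark runs of 4 or more A or T.
MTAP: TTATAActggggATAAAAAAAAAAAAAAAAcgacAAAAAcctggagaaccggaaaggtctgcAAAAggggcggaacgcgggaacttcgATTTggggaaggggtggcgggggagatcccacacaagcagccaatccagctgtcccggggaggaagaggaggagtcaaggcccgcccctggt
CDKN2A, outer start: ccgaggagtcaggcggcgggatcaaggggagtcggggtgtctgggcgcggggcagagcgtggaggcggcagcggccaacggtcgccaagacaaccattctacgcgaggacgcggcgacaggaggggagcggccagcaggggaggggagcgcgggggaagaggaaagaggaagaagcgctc
CDKN2A, inner start: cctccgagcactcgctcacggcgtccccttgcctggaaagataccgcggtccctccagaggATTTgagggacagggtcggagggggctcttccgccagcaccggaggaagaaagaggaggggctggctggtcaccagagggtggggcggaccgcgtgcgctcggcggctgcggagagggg
CDKN2B: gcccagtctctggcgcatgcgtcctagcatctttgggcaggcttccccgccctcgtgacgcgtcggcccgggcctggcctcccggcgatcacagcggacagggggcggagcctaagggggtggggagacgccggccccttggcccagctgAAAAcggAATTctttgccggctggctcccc
Over 250 bases before the start, A and T made up 50% at MTAP, 33.2% at both CDKN2A starts and 33.6% at CDKN2B. The median over 35116 promoters in the same table was 42.0% (quartiles 32.0 and 53.6). Over the same 250 bases, the longest A and T run was 18 bases at MTAP. It was 4 and 6 bases at the outer and inner CDKN2A starts and 9 bases at CDKN2B, against a median of 6 over all promoters. The longest runs of CDKN2A and CDKN2B lie outside the 180 bases shown. The letters AAATT, searched on both strands, occurred in none of the 4 and in 29.0% of all promoters. A genome of the files' own build was not used here, so the sequences of the peaks themselves are not shown.

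Neither list had a peak between 20986302 and 24758213 (input list) or between 20986289 and 24758277 (H3 list). The stretch was 3.77 Mb long in both lists, 25.1% of the window. The left edges differed by 13 bp and the right edges by 64 bp. The left edge lay 0.814 Mb before MTAP, which spans 21.8 to 21.87 Mb, and 981449 bp before CDKN2A (21967751 to 21994490) in the input list. The right edge lay 2748901 bp beyond CDKN2B (22002902 to 22009312), so the genes sat in the left part of the stretch. Among 385929 spaces between neighbouring peaks of the input list it was the sixth longest, and among 263008 of the H3 list it was also the sixth longest. The next longest space in the window was 71239 bp in the input list, after 18933552, and 159841 bp in the H3 list, after 27792311. The median space in the window was 1887 bp (input list) and 2258 bp (H3 list), against 2885 and 3818 bp in the whole lists. In RefSeq's gene order (GRCh38.p14, names only) the protein-coding neighbour of MTAP is IFNE, and DMRTA1 and ELAVL2 follow CDKN2B. Their hg19 positions were not analysed here.

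A peak list shows DNA only where HMGA1 was called, so the control libraries are not seen inside the stretch. Fewer copies of this DNA and DNA present without called HMGA1 cannot be told apart there. At the peak density of the near left flank described below, a stretch of this length would hold 775.3 input-list and 695.3 H3-list peaks. At that of the near right flank it would hold 1528 and 1520.

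Called peaks continued to both edges, and the control level was above its floor at the peaks nearest them. Reads at summits and control levels were recovered from each peak's deposited fold and p-value, and levels are given as multiples of the floor, the genome-wide control coverage that MACS2 uses as a minimum (2.78 reads for input and 2.19 for H3). The last peak on the left ran from 20986090 to 20986301, with 20 HMGA1 reads at its summit, a 2.91-fold enrichment over input and an input level of 2.24 times the floor. In the H3 list it ran from 20986044 to 20986288, 2.79-fold over H3 at an H3 level of 2.28. The peak before it, from 20984359 to 20984627, had 38 reads, 4.78-fold over input and 7.39-fold over H3 (20984333 to 20984654). On the right, the first peak ran from 24758214 to 24758480 with 19 reads, 3.67-fold over input at a level of 1.6, and in the H3 list from 24758278 to 24758472, 4.03-fold at a level of 1.35. The next, from 24758652 to 24758973, had 36 reads and was 6.18-fold over input and 5.0-fold over H3 (24758680 to 24758984). Both edge peaks lay below the lower quartile of HMGA1 reads of the segments they belong to (26 reads in each), and the peaks next to them lay within the quartiles.

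Over the 20 peaks nearest the left edge in the input list, HMGA1 reads ranged from 20 to 97 with a median of 40, and the input level had a median of 2.84 (range 2.24 to 4.16). Over the 20 nearest the right edge, reads ranged from 17 to 71 with a median of 32, and the level had a median of 2.23 (range 1.6 to 3.52). The H3 level had medians of 2.4 and 1.86 over the corresponding H3-list peaks.

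**Figure D1:**
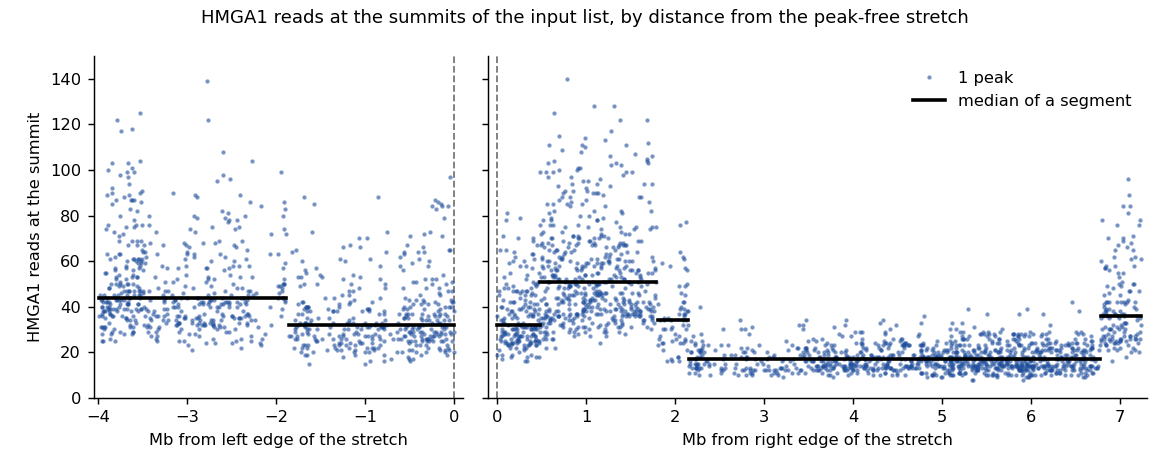
HMGA1 reads at each input-list summit (points) against the distance in Mb from the left edge (left panel, negative distances) and from the right edge (right panel) of the peak-free stretch, with the median of each segment as a black bar. Medians were 44 and 32 reads on the left, and 32, 51, 34, 17 and 36 from the right edge outward.

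HMGA1 reads changed in steps along the window. A least squares fit to the log2 reads of the input list, with at least 25 peaks per segment, gave 5 steps and 7 segments, and the control levels took no part in that fit. On the left, the step lay between summits at 19096069 and 19132971. On the right, steps lay between 25234576 and 25238113, between 26538270 and 26560083, between 26905012 and 26909445, and between 31536215 and 31543715. The segments are called far left, near left, near right, high right, outer right, floor segment and second rise. In the H3 list the fit to HMGA1 reads gave the same number of steps, the left one between 19168997 and 19201779 and the fall between 26905026 and 26926910. H3-list peaks were assigned to segments by the input-list steps.

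The input level was not used to draw the segments. By segment it followed the same pattern on both sides of the stretch: a lower level next to it and a higher one further out. It had a median of 3.84 times the floor (quartiles 3.52 and 4.32, 482 peaks) in the far left segment and 2.48 (2.22 and 2.88, 381 peaks) in the near left segment. It was 2.22 (2.04 and 2.56, 193 peaks) in the near right segment and 4.25 (3.96 and 4.8, 516 peaks) in the high right segment. The quartile ranges of a lower segment and its higher neighbour did not overlap. The ratio of levels was 1.55 for far left over near left and 1.91 for high right over near right. Near left over near right was 1.11, and far left over high right was 0.904. Left of the window the raised level went on, and the 4216 input-list peaks of chromosome 9 before it had a median level of 4.07. Control levels are seen only at called HMGA1 peaks, and calling asks for taller peaks where the control is higher.

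The H3 level had the same order, with medians of 3.55 in the far left segment, 2.23 in the near left, 1.88 in the near right and 3.66 in the high right. The ratio was 1.59 for far left over near left and 1.95 for high right over near right. Fits to the control levels themselves placed the inner right step between 25234576 and 25238113 for input and between 25234569 and 25238095 for H3, at the same peaks as HMGA1 reads. They added smaller steps on the left at 18925492 and 20595417 (input) and 18859789 (H3), and on the right at 25643233 (input) and at 26808902 (input) or 26808901 (H3). Those on the left were rises toward the stretch, so the level did not simply decline toward the left edge. The input level rose there from 3.57 to 4.80 and from 2.09 to 2.72, and the H3 level from 3.49 to 4.57. Those on the right were rises away from the stretch. On the left, the main step lay between 19096069 and 19132971 for input and between 19108394 and 19168997 for H3, so the lists placed it at different peaks.

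**Figure D2:**
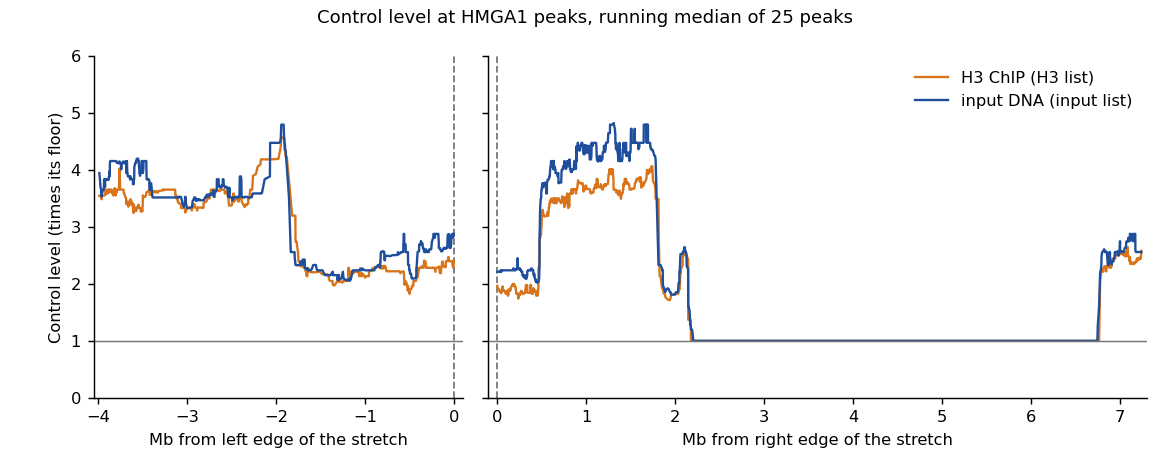
Running median over 25 peaks of the H3 level (orange, H3 list) and of the input level (blue, input list), as multiples of the floor, against the distance in Mb from the left and right edges of the stretch. Next to the stretch the input line lies between about 2 and 3 on both sides, and the H3 line lies above 2 over most of the near left side and just under 2 on the right. Both lie between about 3 and 5 further out, and at the floor of 1 over most of the right side.

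The raised level fell back to its floor at 26.9 Mb. The single split of the peaks right of the stretch with the least squared error in input level lay between summits 26903608 and 26905012, with a median level of 3.98 before and 1.0 after it. Split on H3 level it lay between 26903608 and 26905026, and split on HMGA1 reads between 26905012 and 26909445. The 3 input-list peaks before the split started at 26887597, 26891103 and 26903434, with 21, 50 and 38 HMGA1 reads at input levels of 2.88, 2.93 and 2.57. The 3 after it started at 26904870, 26909306 and 26910308, with 32, 11 and 14 reads at levels of 1.52, 1.0 and 1.0. The change thus spanned a few kilobases. By windows of 500 kb, the run of raised windows next to the stretch (median input level of 2 or more) ended at 27.0 Mb, and the last raised window of all ended at the window's own end, 32.0 Mb. Before the fall came the outer right segment, with 61 input-list peaks at a median level of 2.33 and 34 HMGA1 reads.

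Beyond the fall, 78.7% of the 1018 input-list peaks of the floor segment and 89.5% of its 570 H3-list peaks were at the control floor. The whole lists had 36.4% and 42.9%, and chromosome 9 after the window had 69.7% of 7726 and 71.1% of 4160. The highest input-list summit of the floor segment held 42 HMGA1 reads and the median was 17 (quartiles 13 and 21). The median was 19 in the whole list and also 17 on chromosome 9 after the window. Of the floor segment's peaks, 3 over input and 2 over H3 had a control level of 2 or more. Left of the fall, 516 of 516 high right peaks (100%) and 39 of 61 outer right peaks (63.9%) had such an input level. Over all peaks this share was 7.88% for input and 7.42% for H3, and it was 60.3% and 63.6% in the window, which was chosen with that level known.

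The fall was not the end of raised levels in the window. From 31543441 on, where the segment drawn by HMGA1 reads starts, the level was raised again. This second rise held 143 input-list peaks at a median input level of 2.57 (quartiles 2.41 and 3.12) and 36 HMGA1 reads. It held 127 H3-list peaks at an H3 level of 2.46. By a split of the peaks from 31543441 on, it ended between summits 32628128 and 32637118, outside the window, after 1.08 Mb. Fits to the control levels placed its start slightly earlier, between 31523641 and 31536215 for input and between 31523648 and 31536215 for H3. At the ends of the window, the first input-list peak inside on the left had 36 reads at a level of 4.16, and the last outside had 42 reads at 3.49. On the right, the last inside had 32 reads at 2.57 and the first outside had 31 reads at 3.84.

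**Figure D3:**
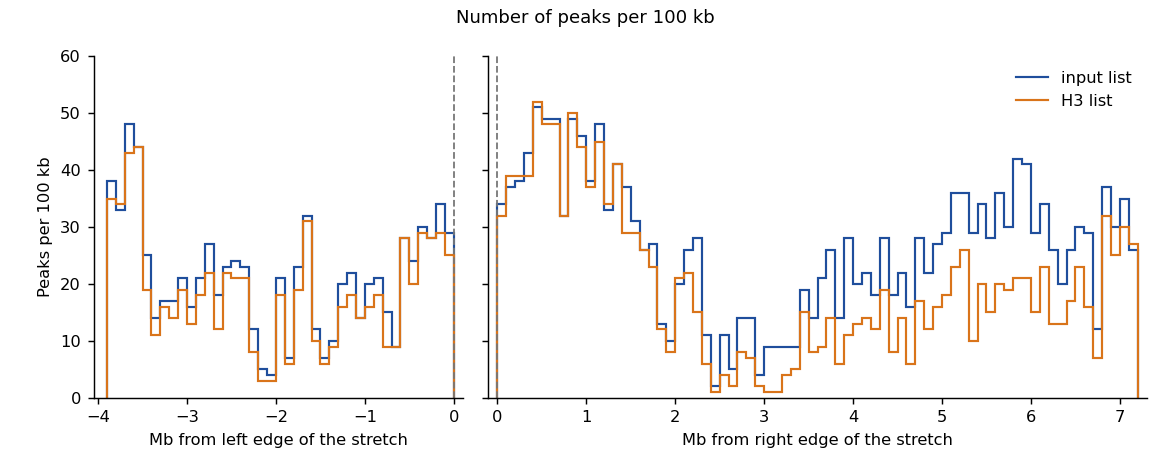
Number of peaks per 100 kb in the input list (blue) and the H3 list (orange), against the distance in Mb from the left and right edges of the stretch. Counts are highest within 2 Mb of the right edge, and beyond the fall the H3 list has fewer peaks than the input list.

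HMGA1 peaks were most closely packed right of the stretch. The near right segment held 405.0 input-list peaks per Mb (95% Poisson interval 349.9 to 466.4), the high right 396.3 (362.9 to 432.0), the far left 229.9 (209.9 to 251.4) and the near left 205.6 (185.4 to 227.3). The autosomes as a whole held 132.4, and all 7 segments were above that, the floor segment included. The outer right segment held 176.7 (135.2 to 227.0), the floor segment 220.0 (206.7 to 234.0) and the second rise 313.2 (264.0 to 369.0). Intervals cover counting error only, and peaks of a library are not independent samples. The near right and near left segments had the same median of 32 HMGA1 reads, and the ratio of their densities was 1.97 over input and 2.19 over H3. Within the input list, windows of 500 kb ranged from 49 peaks (27500001 to 28000000) to 229 (25000001 to 25500000). The same 2 windows were the extremes of the H3 list, with 17 and 225.

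Per Mb, peaks with a fold of 8 or more were densest in the near right segment, at 42.0 over input (95% Poisson interval 25.6 to 64.8) and 67.2 over H3 (45.9 to 94.8), followed by the second rise at 32.9 (18.4 to 54.2) and 43.8 (26.8 to 67.7). The intervals of these segments overlapped. Of the near right peaks, 20 of 193 over input (10.4%, 95% Wilson interval 6.81 to 15.5) and 32 of 192 over H3 (16.7%, 12.1 to 22.6) had a fold of 8 or more, against 7.23% of all input-list and 10.1% of all H3-list peaks. The interval over input holds the share of the whole list, and that over H3 lies above it. In the second rise the shares were 15 of 143 (10.5%) over input and 20 of 127 (15.7%) over H3. In the near left segment these were 32 of 381 (8.4%) and 36 of 335 (10.7%), close to the whole lists. The far left and high right segments had 24 of 482 (4.98%) and 24 of 516 (4.65%) over input, and 36 of 422 (8.53%) and 51 of 495 (10.3%) over H3. Both shares were below that of the whole list over input. The 95% Wilson interval of the far left share holds the whole-list share, however, while that of the high right lies below it. Over H3 the high right share was close to the whole list. The floor segment had 25 of 1018 (2.46%) over input and 22 of 570 (3.86%) over H3. The ratio per Mb of near right over near left was 2.43 for such peaks over input and 3.39 over H3. The highest-fold peak in the near right segment, 13.3-fold over input with 78 reads, ran from 24856596 to 24857000, and that in the near left, 12.95-fold with 85 reads, from 19415337 to 19415700. Both were picked after their values were seen.

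By q-value the leading members all lay in the far left and high right segments, where controls and reads were highest. On the left the first was the peak from 18210104 to 18210729, with 139 HMGA1 reads, 10.4-fold over input, and 13.7-fold over H3 (18210104 to 18210721). It was followed in the input list by a broad peak from 18218531 to 18220470 (122 reads, 12.1-fold) and by peaks starting at 17462538, 17365990 and 17196355, with 125, 118 and 122 reads. Those 3 were 10.8-, 10.4- and 9.79-fold over input. All 5 had a counterpart in the H3 list, and 4 of them were also among its 5 highest by q-value on this side. The remaining H3-list leader ran from 17248311 to 17249104 (117 reads, 9.9-fold over H3).

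On the right the first was the peak from 25542837 to 25543558, with 140 HMGA1 reads, 12.0-fold over input and 13.3-fold over H3, which ranked 28 of all input-list peaks by q-value. The others of the input list started at 25398411, 25850242, 25445974 and 26068568, with 125, 128, 115 and 128 reads and folds of 10.5, 9.69, 10.3 and 8.47. All 5 had a counterpart in the H3 list, and 3 of them were also among its 5 highest by q-value on this side. The remaining H3-list leaders ran from 26138530 to 26139051 (122 reads, 12.1-fold over H3) and from 26437701 to 26438140 (122 reads, 11.1-fold). In all, 42 of the 2794 input-list members had more than 100 HMGA1 reads, of 441 in the whole list. Such peaks were not particular to the window. Chromosome 9 before it held 261 of the 441, among 4216 peaks, and chromosome 9 after it held 20, among 7726. Of the 42, 30 lay in the high right and 12 in the far left segment, and the other segments had none.

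**Figure D4:**
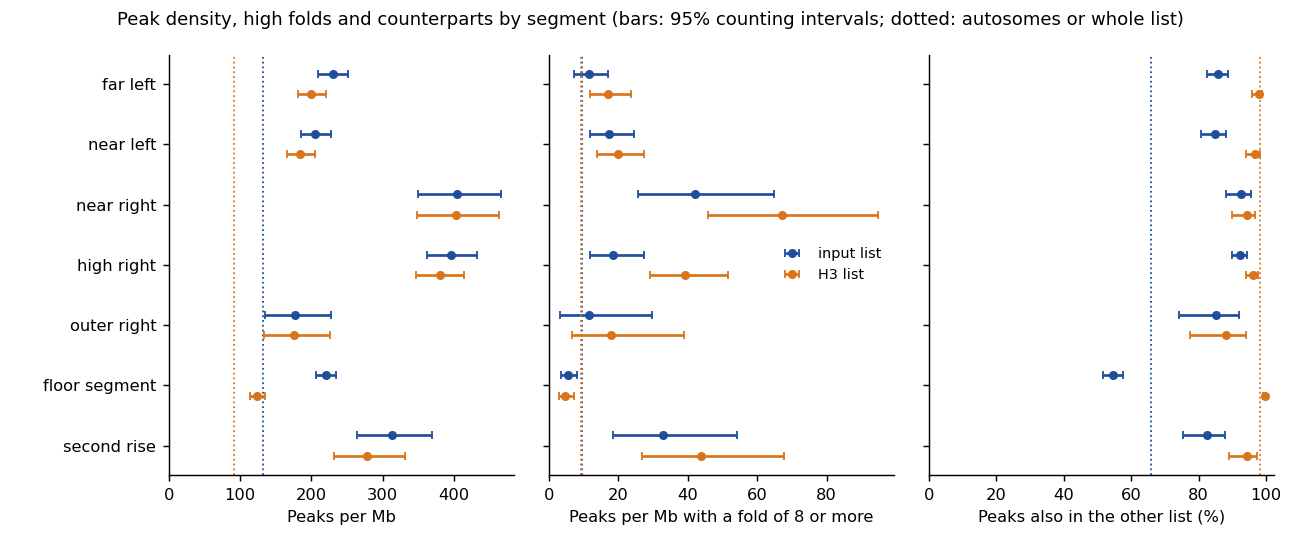
Peaks per Mb, peaks per Mb with a fold of 8 or more, and percent of peaks also found in the other list, for each segment in the input list (blue) and the H3 list (orange), with 95% counting intervals. Dotted lines mark the autosomes (both density panels) or the whole list (panel of shares), and the near right segment is highest in the second panel at 42.0 per Mb over input and 67.2 over H3.

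Input-list peaks also found over H3 were 2120 of 2794 in the window (75.9%, 95% Wilson interval 74.3 to 77.4), against 65.8% in the whole list. By segment, 179 of 193 near right peaks (92.7%), 477 of 516 high right (92.4%), 414 of 482 far left (85.9%) and 323 of 381 near left (84.8%) had a counterpart. In the floor segment 557 of 1018 did (54.7%, 51.6 to 57.7), against 52.7% on chromosome 9 after the window. Among peaks with at least 25 HMGA1 reads, the share was 118 of 118 in the floor segment, 157 of 158 in the near right, 289 of 313 in the near left (92.3%), 476 of 513 in the high right (92.8%) and 413 of 474 in the far left (87.1%, 83.8 to 89.8). The whole list had 98.5%. All these shares but those of the floor segment and the near right lay below it, and the part of the control level in this was not tested. In the other direction 2135 of 2200 H3-list members (97.0%) had an input-list counterpart, against 98.3% of that list.

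At 1066 members the lists put the summit at 1 identical base, and the recovered HMGA1 reads were equal at all 1066. The H3 level divided by the input level, each relative to its floor, had a median of 0.81 at 86 near right summits (quartiles 0.745 and 0.908) and 0.859 at 240 high right summits (0.769 and 0.936). It was 0.925 at 162 near left summits (0.773 and 1.06) and 0.922 at 209 far left summits (0.784 and 1.03). H3 was the higher at 14 of the 86 near right summits and at 57 of the 162 near left ones. Where both controls were at least 1.5 times the floor, the median was 0.878 at 775 summits of the window and 0.952 at 12606 summits elsewhere. The quartile ranges overlapped in each of these pairs.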

How the data were processed

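Peaks of 1 HMGA1 ChIP library from DAMI cells were called with MACS2 on hg19, per the submitters' processing notes. Its version, the aligner and any filter on reads: not given in the sources used here. What the authors deposited are 2 lists, with the H3 or the input library as control. Each deposited row holds a fold ratio, the −log10 of a p-value and of a q-value, a whole-number score and the summit position. The lists give no totals, so the depth of each library is unknown. Peak names carry the control and the build, but start with a prefix other than HMGA1. The ChIP was taken to be HMGA1 from how the deposited lists are titled and from the labels, and the values do not check this.

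HMGA1 reads at a summit were taken as the whole number that returned the deposited −log10 p-value within 0.001, with the fold read as pileup plus 1 over control plus 1. All 385953 and 263033 peaks were solved. In the H3 list reads were first multiplied by 0.787, fitted on 400 peaks. The procedure was tested on simulated data.

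Segments, the nearest and highest-q peaks, overlaps of at least 1 bp and windows of 500 kb were described with no test, since each library is single. Steps were fitted by least squares with a penalty of 10 times log n times the variance between neighbours, a procedure chosen after seeing the data and also tested on simulated data. Members and lists were chosen with earlier results of these data known. Named peaks were the nearest 2 at each edge, the 5 highest by q-value per side and list, and the 3 on either side of the fall. The planned gene rule and the A and T content at summits were not run, as a genome of the hg19 build was not used here. Gene positions come with the selection of the region. Coordinates are 1-based. Computations ran in Python 3.11.15 with scipy 1.17.1, pandas 2.3.3 and numpy 2.4.6, and figures were drawn with matplotlib 3.10.9.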

Additional observations from a re-analysis of the deposited data

How the results depend on the processing

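The stretch stayed 3.77 Mb long under each alternative run. Other values moved as follows, and the cause was not tested. Of the 2794 input-list members, −log10 q of at least 5 left 2174, a fold of at least 4 left 1497 and at least 25 HMGA1 reads left 1749. Of the 2200 H3-list members, these left 1857, 1534 and 1653. With a fold of at least 4, the median control level of the left flank was 3.20 (input) and 2.91 (H3), and that of the right flank to the fall 3.84 and 3.32. Within 1 Mb of the stretch, the left flank had 2.56 and 2.27 and the right flank 3.65 and 3.16. With at least 25 reads, the left flank had 3.47 (input), and the peaks after the fall 2.15 (input) and 1.83 (H3), the second rise included.

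The share of peaks with a counterpart also moved. At an overlap of 50% of both peaks it was 87.7% (right flank) and 53.4% (after the fall) for the input list, and 94.98%, 90.5% and 89.0% (left, right, after the fall) for the H3 list. With at least 25 reads it was 89.2%, 94.6% and 95.1% for the input list (left, right, after the fall), and 98.7% and 96.5% for the H3 list (left, right). After the fall it was 72.8% (input) and 97.7% (H3) at −log10 q of at least 5, and 96.7% (H3) with summits within 200 bp. The run of raised 500 kb windows next to the stretch ended at 27.0 Mb in the input list. In the H3 list the first window with peaks had a median of 1.91, under 2 times the floor. The run there thus held no window, and its end was set at 24.5 Mb, inside the stretch. The H3 windows from 25000001 to 27000000 had medians of 3.03, 3.67, 3.74 and 2.23, so the raised H3 level did not end at 24.5 Mb.

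No paired analysis was possible because each antibody has 1 library, and for the same reason leaving out a replicate was not run. The alternatives for the sequences at summits were not run. Over the whole lists, the lowest summit called held 8 HMGA1 reads over input and 11 over H3. In the flanks the lowest input-list summit was higher. It held 21 reads in the far left, 15 in the near left, 16 in the near right and 22 in the high right segment. Peaks under these reads were not seen.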
